A study of Mus musculus with 7 samples.

Results

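Paraspeckles are nuclear bodies that assemble around the long non-coding RNA *Neat1*, and a set of RNA-binding proteins builds them. The DBHS proteins SFPQ, NONO and PSPC1 (a family named after Drosophila behaviour and human splicing) coat the *Neat1* RNA as dimers, RBM14 bridges the ribonucleoprotein particles through its prion-like domain, and HNRNPK favours the long isoform of *Neat1*, which is the one that scaffolds the body. TDP-43, TAF15, EWSR1 and matrin-3 are RNA-binding proteins that bind *Neat1* or localise to paraspeckles, and mutations in the genes of TDP-43 and matrin-3 cause amyotrophic lateral sclerosis (ALS). The question put to the data was whether the genes of these proteins are expressed differently in the spinal cord when their scaffold RNA is lost.

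The 9 genes described here are *Sfpq*, *Nono*, *Pspc1*, *Rbm14*, *Tardbp* (which encodes TDP-43), *Taf15*, *Ewsr1*, *Matr3* and *Hnrnpk*. They were chosen by name, found by their gene symbol among the 55487 genes of the count table, and all 9 passed the filter on low counts. RNA-seq was carried out on the cervical spinal cord of 8-week-old mice, with 4 libraries from *Neat1*-KO mice and 3 from *Neat1*-WT mice, and every mouse of both groups also carried hSOD1G93A, a human SOD1 transgene with an ALS mutation that is used as a mouse model of the disease. *Neat1*-KO stands for mice without a functional *Neat1* allele and *Neat1*-WT for mice with both alleles intact. No mice without the transgene were sequenced, so each value below is a comparison of *Neat1* genotypes within the model. At this age the model is usually still before the onset of weakness. The paper nevertheless reports fewer motor neurons in the lumbar cord of *Neat1*-KO than of *Neat1*-WT mice of the model at this age. The model carries the SOD1 mutation, and the pathology of TDP-43 seen in most sporadic ALS is not one of its usual features. The tissue was taken whole, so fewer cells of a type and less RNA per cell cannot be told apart.

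The deposited values were read counts per gene, with 19661878 to 26031517 counts per library. Levels are given in CPM, a gene's count set against its library's total after TMM scaling, with factors from 0.991 to 1.008. Fold changes are *Neat1*-KO over *Neat1*-WT on the log2 scale with their standard error (SE), and come from edgeR's quasi-likelihood F-test over 18449 genes with Benjamini-Hochberg adjustment. Called genes had to reach both an adjusted p below 0.1 and a log2 fold change of more than 0.58 in size. *Neat1* itself was at 5.09, 5.40, 5.52 and 4.04 CPM in the *Neat1*-KO libraries (replicates 1 to 4, the order used throughout) and at 86.2, 80.5 and 118 CPM in the *Neat1*-WT libraries (replicates 2 to 4). Every *Neat1*-KO library was far below every *Neat1*-WT library, and the log2 fold change was −4.25 (SE 0.15, edgeR adjusted p = 1.52e-08). The Hox genes of the cervical cord were present and 4 of 5 lumbar Hox genes stayed under 1 CPM in every library. *Xist* did not exceed 0.161 CPM and the Y-linked genes were expressed in all 7 libraries, although all 4 Y-linked genes were lowest in *Neat1*-KO replicate 4, as with *Ddx3y* at 39.9 CPM there and 75.8 to 94.4 CPM in the other libraries.

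None of the 9 genes was called different between *Neat1*-KO and *Neat1*-WT (0 of 9, while 0.0325% of all genes tested were called), and the edgeR adjusted p was at least 0.992 for each of them. The unadjusted edgeR p was under 0.05 for 1 of 9, *Pspc1*, and 4.64% of all genes tested were at that level. DESeq2 and limma-voom called none of the 9 either, and their unadjusted p was under 0.05 for 0 and 1 of them. The ranges of *Neat1*-KO and *Neat1*-WT were apart for 1 of 9, again *Pspc1*, as they were for 5.47% of all genes tested. The log2 fold change was above 0 for 4 genes and below 0 for 5, with a median of −0.01, beside 0.01 over all genes tested. No absolute value exceeded 0.18.

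**Figure D1:**
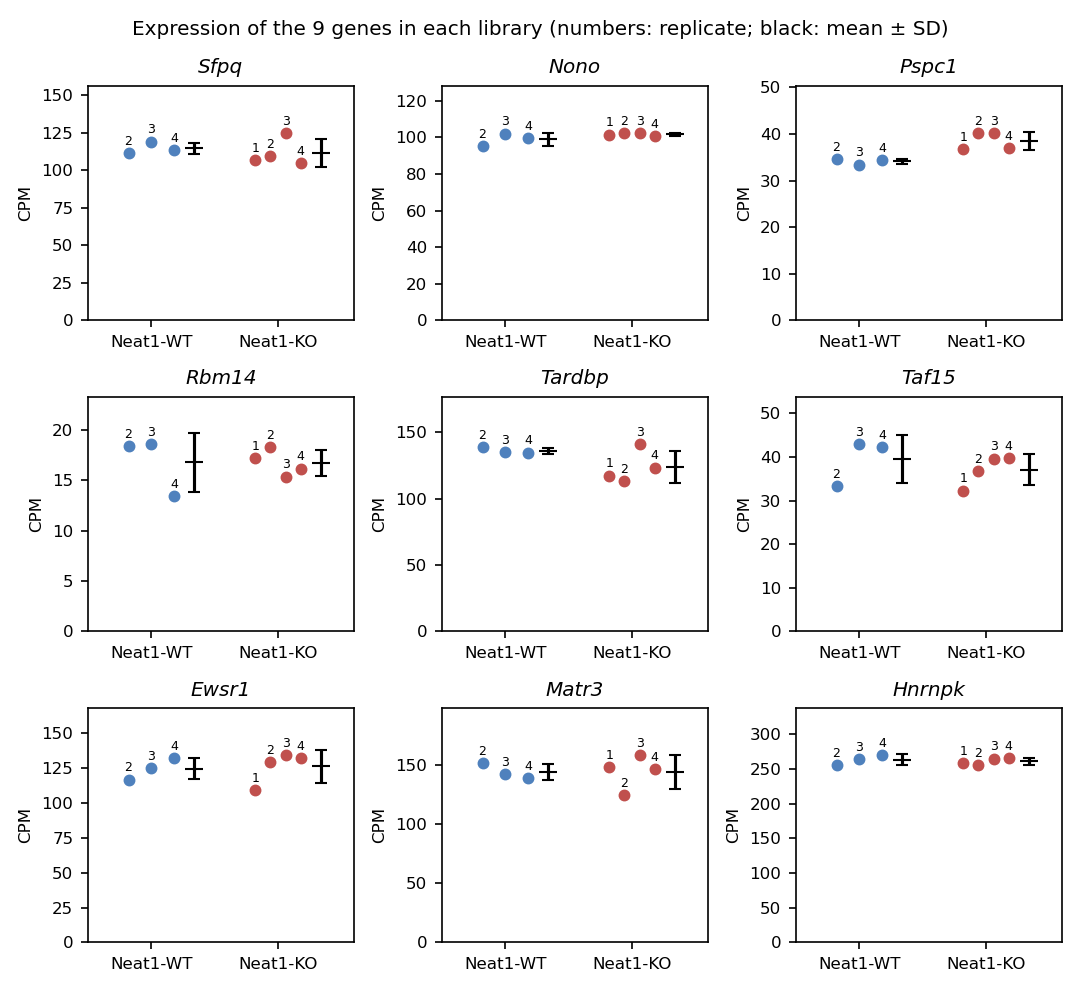
Expression of the 9 genes in CPM (vertical axes, each starting at 0) in the 3 *Neat1*-WT libraries (blue) and the 4 *Neat1*-KO libraries (red), with the replicate number over each point and the mean ± SD of each genotype in black. The *Pspc1* panel is the only one in which all red points, 36.7 to 40.2 CPM, lie above all blue points, 33.4 to 34.5 CPM, and in the *Tardbp* panel *Neat1*-KO replicate 3 lies apart from the other red points.

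The data limited how large a difference could have been present. The 95% interval of the fold (KO over WT) included no change for 8 of 9 genes, and over all 9 genes these intervals lay between 0.798 and 1.27. The precision rested on 263 to 6964 counts per gene and library, for which counting error alone is 6.17% at the lowest and 1.20% at the highest count. The biological coefficient of variation had a median of 0.0870 over the 9 genes and of 0.121 over all genes tested. From the lowest to the highest of the 7 libraries, the level differed by 1.06 times for *Hnrnpk*, the steadiest of the 9, and by 1.39 times for *Rbm14*, the most variable.

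**Figure D2:**
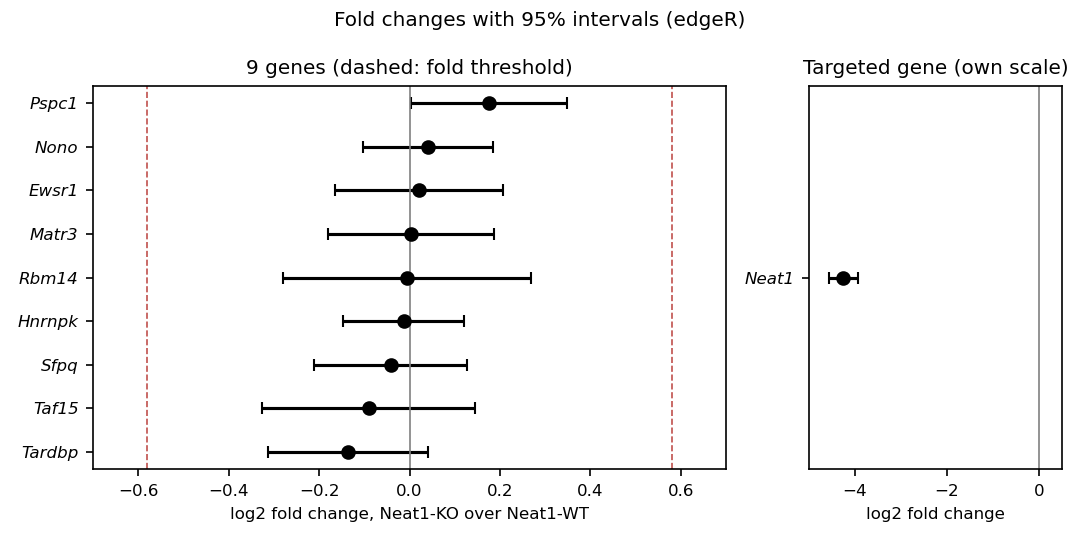
Log2 fold changes of *Neat1*-KO over *Neat1*-WT (horizontal axes) with their 95% intervals from edgeR, for the 9 genes on the left and for *Neat1* on its own scale on the right. The 9 intervals stay inside the dashed lines, which mark the fold threshold of 0.58 in either direction, and only that of *Pspc1* lies wholly to one side of 0, while *Neat1* stands at −4.25.

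The DBHS genes are paralogues, and their coding sequences hold stretches in common. The longest identical run between each pair is shown because it bears on whether their reads can be told apart. The runs were found in GENCODE M21 coding sequences of GRCm38, and each is printed in capitals with 9 bases of its own gene on either side in lower case, along the coding strand.
*Sfpq* with *Nono*, *Sfpq* (chr4:127023481-127023502, plus strand): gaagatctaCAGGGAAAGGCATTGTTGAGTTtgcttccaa
*Sfpq* with *Nono*, *Nono* (chrX:101441730-101441751, plus strand): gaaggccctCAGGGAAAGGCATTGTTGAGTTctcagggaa
*Nono* with *Pspc1*, *Nono* (chrX:101444282-101444298, plus strand): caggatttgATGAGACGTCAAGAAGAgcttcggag
*Nono* with *Pspc1*, *Pspc1* (chr14:56758693-56758709, minus strand): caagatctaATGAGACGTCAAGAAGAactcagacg
*Sfpq* with *Pspc1*, *Sfpq* (chr4:127025931-127025944, plus strand): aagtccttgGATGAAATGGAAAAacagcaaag
*Sfpq* with *Pspc1*, *Pspc1* (chr14:56761941-56761954, minus strand): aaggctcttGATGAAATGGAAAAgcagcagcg
The longest run was 22 bases between *Sfpq* and *Nono*, 17 between *Nono* and *Pspc1* and 14 between *Sfpq* and *Pspc1*, and where their coding sequences could be aligned they were 69.4% to 71.5% identical. *Taf15* and *Ewsr1*, paralogues of the FET family, shared at most 15 bases, and 260 aligned bases were 72.3% identical.
*Taf15* with *Ewsr1*, *Taf15* (chr11:83504692-83504706, plus strand): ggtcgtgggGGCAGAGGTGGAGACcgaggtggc
*Taf15* with *Ewsr1*, *Ewsr1* (chr11:5070374-5070388, minus strand): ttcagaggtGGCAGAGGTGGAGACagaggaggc
These pairs thus held no long identical coding stretch, and each paralogue is described by its own counts.

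*Pspc1* (ENSMUSG00000021938, GRCm38 chromosome 14, 56720710 to 56778316, minus strand) encodes paraspeckle component 1, the least abundant of the DBHS proteins' transcripts here. Its level was 36.7, 40.2, 40.2 and 37.0 CPM in the *Neat1*-KO libraries and 34.5, 33.4 and 34.4 CPM in the *Neat1*-WT libraries. All 4 *Neat1*-KO libraries were above all 3 *Neat1*-WT libraries, with the closest pair 36.7 against 34.5 CPM. Of all genes tested, 2.91% did not overlap in this direction and 2.57% in the other. *Neat1*-KO averaged 38.5 ± 1.97 CPM (SD, n = 4) against 34.1 ± 0.623 CPM (SD, n = 3) in *Neat1*-WT, and the fitted difference was 13.0% with a 95% interval from 0.294% to 27.3%. On the log2 scale it was 0.18 (SE 0.08, edgeR unadjusted p = 0.0454, adjusted p = 0.992), and 2.24% of all genes tested were at an unadjusted p under 0.05 in this direction. A two-sided exact permutation test over all 35 ways to divide the libraries 4 to 3 gave p = 0.0286, the smallest this design allows. *Pspc1* therefore did not pass the test across genes. Without each library in turn the log2 fold change stayed between 0.15 and 0.20. The genotypes stayed apart, which removing a library from ranges that do not overlap cannot change. However, the unadjusted edgeR p was under 0.05 only without *Neat1*-KO replicate 1. There it was 0.0321 by edgeR (adjusted p = 0.687), and 6.85% of all genes were under 0.05.

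*Sfpq* (ENSMUSG00000028820, chromosome 4, 127021324 to 127037013, plus strand) encodes the DBHS protein that is needed for *Neat1* stability and paraspeckle assembly. It was at 107, 109, 125 and 105 CPM in the *Neat1*-KO libraries and at 112, 119 and 113 CPM in the *Neat1*-WT libraries. *Neat1*-KO replicate 3 was the highest of all 7, the other 3 *Neat1*-KO libraries were the lowest, and the groups overlapped through that library alone. *Neat1*-KO differed from *Neat1*-WT by a log2 fold change of −0.04 (SE 0.08, edgeR adjusted p = 0.992), with an interval from −0.21 to 0.13.

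*Nono* (ENSMUSG00000031311, chromosome X, 101429318 to 101448591, plus strand) encodes the DBHS partner that forms dimers with both SFPQ and PSPC1. It was at 101, 102, 102 and 101 CPM in the *Neat1*-KO libraries and at 95.1, 102 and 99.5 CPM in the *Neat1*-WT libraries. The *Neat1*-KO libraries had a coefficient of variation of 0.784%, and *Neat1*-WT replicate 3 fell among them. This left a log2 fold change of 0.04 (SE 0.07, edgeR adjusted p = 0.992), with an interval from −0.10 to 0.18.

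The DBHS transcripts were also set against each other. Per length, *Pspc1* made up 12.3%, 13.1%, 12.4% and 12.5% of the summed DBHS RPKM (CPM per kilobase of exon) in the *Neat1*-KO libraries and 11.7%, 10.7% and 11.4% in the *Neat1*-WT libraries. The share of *Pspc1* was thus higher in each *Neat1*-KO library than in each *Neat1*-WT library, as its level was, so this is the same measurement and not a second one. *Sfpq* held 42.8% to 46.4% of that sum in *Neat1*-KO and 45.4% to 46.2% in *Neat1*-WT, and *Nono* held 41.3% to 44.7% and 42.4% to 43.2%. Relative to *Nono* alone, *Pspc1* ranged from 36.2 to 39.4 per 100 in *Neat1*-KO and from 32.7 to 36.3 per 100 in *Neat1*-WT, so that the ranges met. Relative to *Sfpq* alone, it ranged from 32.2 to 36.8 per 100 in *Neat1*-KO and from 28.1 to 31.0 per 100 in *Neat1*-WT, without overlap.

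*Rbm14* (ENSMUSG00000006456, chromosome 19, 4800569 to 4811634, minus strand) was the weakest of the 9 genes and lies 1013074 bases from *Neat1* on the same chromosome. It was at 17.2, 18.3, 15.4 and 16.2 CPM in the *Neat1*-KO libraries and at 18.4, 18.6 and 13.4 CPM in the *Neat1*-WT libraries. The *Neat1*-WT libraries held both the highest and the lowest value of the 7, with replicate 4 below all others. Its log2 fold change was −0.01 (SE 0.13, edgeR adjusted p = 0.998), with the widest interval of the 9, from −0.28 to 0.27. Of its exonic bases, 18.6% are shared with the same-strand gene *Gm21992*, and reads from these bases cannot be assigned to either gene alone.

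*Hnrnpk* (ENSMUSG00000021546, chromosome 13, 58391142 to 58403343, minus strand) had the highest level of the 9 both in CPM and per length. It was at 258, 255, 265 and 266 CPM in the *Neat1*-KO libraries and at 255, 264 and 270 CPM in the *Neat1*-WT libraries. The groups lay over each other, and the log2 fold change was −0.01 (SE 0.06, edgeR adjusted p = 0.996), with an interval from −0.15 to 0.12. A processed pseudogene, *Gm7964*, is 99.2% identical over 1378 bases and had 525 to 859 counts per library of its own, so a part of the reads of *Hnrnpk* may be counted there or left out as not unique.

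*Tardbp* (ENSMUSG00000041459, chromosome 4, 148612382 to 148627019, minus strand) encodes TDP-43, which binds UG-rich RNA, represses cryptic exons and controls its own mRNA through its 3′ end. It was at 117, 114, 141 and 123 CPM in the *Neat1*-KO libraries and at 139, 135 and 135 CPM in the *Neat1*-WT libraries. Replicates 1, 2 and 4 of *Neat1*-KO were below every *Neat1*-WT library, and replicate 3 was the highest of all 7. *Neat1*-KO averaged 124 ± 12.3 CPM (SD, n = 4) and *Neat1*-WT 136 ± 2.35 CPM (SD, n = 3). This gave a log2 fold change of −0.14 (SE 0.08, edgeR unadjusted p = 0.118, adjusted p = 0.992), with an interval from −0.31 to 0.04, and the two-sided exact permutation test gave p = 0.2. Without *Neat1*-KO replicate 3, chosen here after its values were seen, the log2 fold change was −0.21 (edgeR unadjusted p = 0.0120, adjusted p = 0.520), and 7.78% of all genes then had an unadjusted p under 0.05. *Tardbp* was thus not called with or without that library. On the opposite strand, *Masp2* covers 23.3% of the exonic bases of *Tardbp* and had at most 477 counts in a library, against at least 2285 for *Tardbp*. Reads of the shared bases can be told apart only where the counting used strand, which the sources used here do not give. These counts therefore do not show how many such reads were left out.

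*Neat1*-KO replicate 3 raised more than *Tardbp*. It was the highest of the 7 libraries for *Sfpq*, *Nono*, *Tardbp*, *Ewsr1* and *Matr3*, and the 9 genes summed to 1021 CPM in it, beside 926.7 to 982.3 CPM in the other libraries. Without it, 3 of 9 genes did not overlap between the genotypes, *Pspc1* higher and *Sfpq* and *Tardbp* lower in *Neat1*-KO, and 14.4% of all genes tested did not overlap in those 6 libraries. Leaving out a *Neat1*-WT library instead gave 2 non-overlapping genes each time, *Pspc1* with *Taf15* lower (without replicate 2, 10.5% of all genes), with *Nono* higher (without replicate 3, 12.1%) or with *Rbm14* lower (without replicate 4, 13.2%). *Pspc1* was among them every time, as any gene whose genotypes are apart in all 7 libraries must be.

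**Figure D3:**
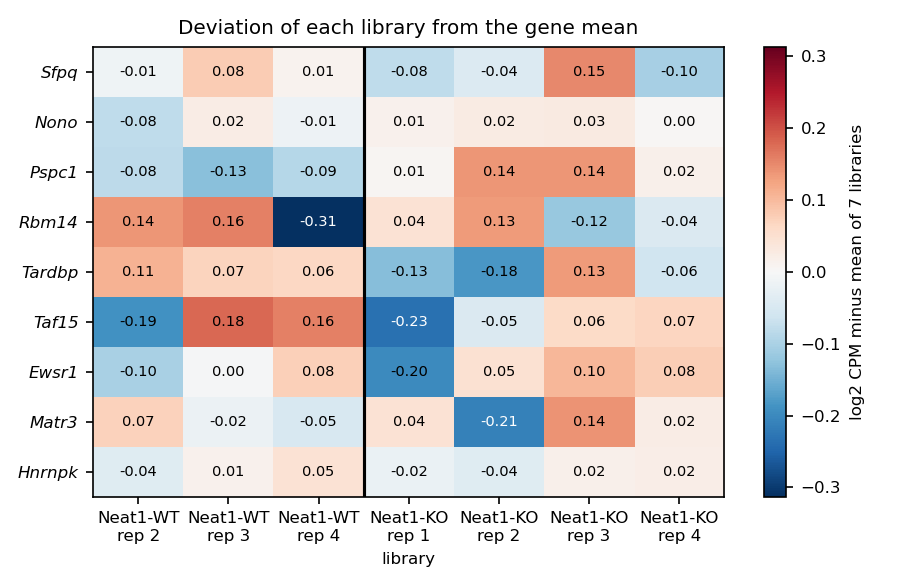
Deviation of each library (columns, *Neat1*-WT left of the black line, *Neat1*-KO right) from the mean of the 7 libraries for each of the 9 genes (rows), as log2 CPM, red for above and blue for below. The *Pspc1* row is below its mean in all 3 *Neat1*-WT columns, *Neat1*-KO replicate 3 is above the mean for 8 of 9 genes, and the *Taf15* and *Ewsr1* rows are lowest in *Neat1*-KO replicate 1 and *Neat1*-WT replicate 2.

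*Taf15* (ENSMUSG00000020680, chromosome 11, 83473086 to 83506743, plus strand) and *Ewsr1* (ENSMUSG00000009079, chromosome 11, 5069689 to 5099266, minus strand) encode FET proteins, which join transcription with splicing and carry prion-like domains. *Taf15* was at 32.3, 36.8, 39.6 and 39.8 CPM in the *Neat1*-KO libraries and at 33.3, 43.0 and 42.3 CPM in the *Neat1*-WT libraries. *Ewsr1* was at 109, 129, 134 and 132 CPM in the *Neat1*-KO libraries and at 116, 125 and 132 CPM in the *Neat1*-WT libraries. Both genes were lowest in *Neat1*-KO replicate 1 and next lowest in *Neat1*-WT replicate 2, and in both the genotypes overlapped. The log2 fold change of *Taf15* was −0.09 (SE 0.11, edgeR adjusted p = 0.992), with an interval from −0.33 to 0.15. That of *Ewsr1* was 0.02 (SE 0.09, edgeR adjusted p = 0.996), with an interval from −0.16 to 0.21. The ratio of *Taf15* to *Ewsr1* was 28.4 to 30.1 per 100 in *Neat1*-KO and 28.6 to 34.5 per 100 in *Neat1*-WT, which overlapped.

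The same 2 libraries had the lowest summed levels of meningeal, nerve root, microglial and astrocyte markers. The 5 meningeal markers summed to 70.2 CPM in *Neat1*-KO replicate 1 and to 63.2 CPM in *Neat1*-WT replicate 2, and to 95.4 to 188 CPM in the other libraries. The 4 markers of sensory ganglia and nerve roots summed to 12.7 and 13.6 CPM in these 2 libraries and to 19.0 to 56.2 CPM in the others, and 1 of the 4, *Scn10a*, was under 1 CPM in every library. Microglial markers summed to 123 and 124 CPM in these 2 libraries and to 154 to 189 CPM in the others. Astrocyte markers summed to 4781 and 5177 CPM in them and to 5289 to 6317 CPM in the others. The neuronal, motor neuron and oligodendrocyte sums were not lowest in these 2 libraries. The part of these marker levels in the values of *Taf15* and *Ewsr1* was not tested.

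*Matr3* (ENSMUSG00000037236, chromosome 18, plus strand) encodes matrin-3, a nuclear matrix protein that binds RNA and DNA. It was at 148, 124, 158 and 146 CPM in the *Neat1*-KO libraries and at 151, 142 and 139 CPM in the *Neat1*-WT libraries. *Neat1*-KO held both extremes, replicate 2 the lowest and replicate 3 the highest, and the *Neat1*-WT libraries fell between them. Between the means there was a log2 fold change of 0.00 (SE 0.08, edgeR adjusted p = 0.998), with an interval from −0.18 to 0.19. *Gm28285*, a gene on the same strand, shares 17.3% of the exonic bases of *Matr3* and had at most 4 counts in a library. Reads of those bases cannot be assigned to either gene alone. The antisense gene *AC121821.3* shares 310 bases of the exons of *Matr3* and had 1103 to 1833 counts per library. Reads of these 310 bases can be told apart only where the counting used strand, which the sources used here do not give.

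Of the lists of cell type markers, that of motor neurons was the only one whose summed level did not overlap between the genotypes. All 6 motor neuron markers had a log2 fold change below 0, with a median of −0.25 and an unadjusted edgeR p under 0.05 for 3 of them, where 2.4% of all genes were at that level in this direction. None was called, the smallest edgeR adjusted p being 0.840. Their summed level was 277.8 to 338.4 CPM in *Neat1*-KO and 359.7 to 428.1 CPM in *Neat1*-WT, without overlap. Only the sum was apart, since the genotypes overlapped for each of the 6 markers taken singly. None of the 6 was at 0. The part of this in the values of *Tardbp* and *Pspc1* was not tested. The general neuronal markers, 3 higher and 2 lower with a median of 0.00, summed to 2770 to 3114 CPM and to 2765 to 3237 CPM.

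Between genes, levels can be compared only per length. In RPKM over the union of each gene's exons, as the mean ± SD of the 7 libraries, the order was *Hnrnpk* 40.5 ± 0.907, *Sfpq* 23.8 ± 1.50, *Nono* 23.0 ± 0.597, *Ewsr1* 21.2 ± 1.59, *Tardbp* 16.6 ± 1.41, *Matr3* 14.2 ± 1.07, *Taf15* 13.1 ± 1.44, *Pspc1* 6.39 ± 0.483 and *Rbm14* 4.29 ± 0.492. *Sfpq* was above *Nono* in 4 of 7 libraries and *Matr3* above *Taf15* in 4 of 7, so neither of these neighbours in the order differed beyond the spread. The other 6 steps of the order were the same in all 7 libraries. The middle of the order depended on the length used. With the longest transcript in place of the union of exons, *Ewsr1* came second with 48.4 RPKM, ahead of *Nono* with 39.2 and *Sfpq* with 32.5, and *Tardbp* fell to the seventh place with 17.3, while *Hnrnpk* stayed first with 88.2 and *Pspc1* and *Rbm14* stayed last with 8.90 and 4.78.

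**Figure D4:**
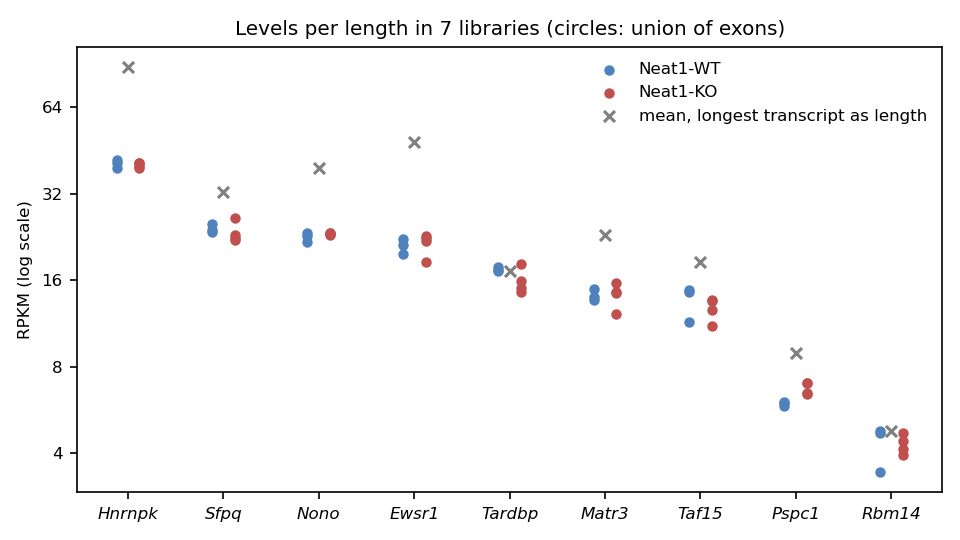
Levels per length in RPKM (vertical axis, log scale) of the 9 genes, with a circle for each of the 3 *Neat1*-WT (blue) and 4 *Neat1*-KO (red) libraries over the union of exons, and a cross for the mean over the longest transcript. *Hnrnpk* stands highest and *Rbm14* lowest by either length, with a mean of 40.5 and 4.29 RPKM over the union of exons, and the blue and red circles overlap for every gene but *Pspc1*.

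Promoter sequence is shown for *Pspc1* and *Tardbp*, the members with the smallest unadjusted p. The 250 bases before the RefSeq start of each gene are on GRCm38.p6, 5′ to 3′ along the gene's strand, with matches to the motifs named next in capitals. RefSeq and GENCODE starts differ. Against the GENCODE spans given above, the windows of *Nono* and *Hnrnpk* lie inside the gene. Those of *Tardbp*, *Taf15* and *Ewsr1* lie partly inside it. RefSeq held such a window for 8 of the 9 genes (all but *Matr3*).
*Pspc1* (chr14:56778319-56778568, minus strand): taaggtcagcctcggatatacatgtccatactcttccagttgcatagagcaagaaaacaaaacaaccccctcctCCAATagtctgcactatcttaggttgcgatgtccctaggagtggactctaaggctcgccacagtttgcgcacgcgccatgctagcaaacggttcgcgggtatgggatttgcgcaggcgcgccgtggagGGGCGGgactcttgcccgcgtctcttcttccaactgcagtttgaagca
*Tardbp* (chr4:148626997-148627246, minus strand): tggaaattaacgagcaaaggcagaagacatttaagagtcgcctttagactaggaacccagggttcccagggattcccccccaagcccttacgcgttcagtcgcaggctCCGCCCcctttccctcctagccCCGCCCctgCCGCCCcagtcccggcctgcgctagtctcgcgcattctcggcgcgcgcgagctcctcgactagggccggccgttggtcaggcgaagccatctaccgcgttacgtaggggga
On either strand, the CCAAT box (CCAAT) was in 6 of the 8 windows (*Hnrnpk*, *Nono*, *Pspc1*, *Rbm14*, *Sfpq* and *Taf15*) and in 33.8% of all 32851 windows of that length. The GC box (GGGCGG) was in 3 of 8 (*Pspc1*, *Taf15* and *Tardbp*) and in 32.7% of all. The TATA box (TATAAA), the ETS motif (CCGGAAG), the cyclic AMP response element (TGACGTCA), an E-box (CACGTG) and a TG repeat of the kind TDP-43 binds in RNA (TGTGTGTG) were in none of the 8 windows, and in 12.4%, 6.91%, 1.55%, 6.02% and 3.55% of all windows. These motifs do not overlap each other's letters in the matches printed. The 8 windows held 8 to 31 CpG dinucleotides, beside a median of 6 over all windows, and 45.2% to 69.2% G and C. No motif searched was in all 8 windows.

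The genes whose pattern over the 7 libraries was nearest to *Pspc1* were *Map3k1* and *Trappc12*, and those nearest to *Tardbp* were *Mier3* and *Api5*. Likeness was the root mean square difference of log2 CPM after each gene was centred, 0.0362 and 0.0394 for the first pair and 0.0278 and 0.0287 for the second, with the members' own root mean square about their mean at 0.10 and 0.116. *Map3k1* was at 11.5 to 13.5 CPM in *Neat1*-KO and at 10.7 to 11.5 CPM in *Neat1*-WT, and *Api5* at 76.8 to 91.1 CPM and 87.4 to 94.4 CPM with its highest *Neat1*-KO value in replicate 3. None of the 4 was called (edgeR adjusted p = 0.992 for each), and they were picked by likeness out of all genes tested.

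Other genes of the same biology were taken as lists that do not hold the 9. Of 30 further paraspeckle protein genes, 28 were tested (*Runx3* and *Dlx3* were too low) and none was called. Their log2 fold change was above 0 for 12 and below 0 for 16, with a median of −0.02. The unadjusted edgeR p was under 0.05 for 3. *Cirbp* and *Rbm3*, which encode cold-inducible RNA-binding proteins, had log2 fold changes of 0.53 (SE 0.13, edgeR adjusted p = 0.605) and 0.50 (SE 0.14, edgeR adjusted p = 0.733), and *Srsf10*, which encodes a splicing factor, −0.22 (SE 0.09, edgeR adjusted p = 0.992). Genotypes did not overlap for 5 of the 28, with *Cirbp*, *Rbm3* and *Pced1a* higher (3 of 28, beside 2.91% of all genes tested) and *Nudt21* and *Zfp24* lower (2 of 28, beside 2.57%). *Cirbp* was at 50.7, 55.5, 40.6 and 62.7 CPM in the *Neat1*-KO libraries and at 33.8, 36.8 and 38.6 CPM in the *Neat1*-WT libraries. *Neat1*-KO replicate 3 was the closest to *Neat1*-WT for both cold-inducible genes, and without it *Cirbp* was called (log2 fold change 0.63, edgeR adjusted p = 0.0914). With all libraries, the DESeq2 adjusted p of *Cirbp* was 0.0396, but its log2 fold change of 0.52 was under the fold threshold. By limma-voom its adjusted p was 0.679.

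Values were also small in the hnRNP family, to which HNRNPK belongs. All 28 further members were tested and none was called or had an unadjusted edgeR p under 0.05, with 13 above 0 and 15 below and a median of −0.01. The extremes were *Ptbp1*, a repressor of neuronal exons, at 0.16 and *Hnrnph3* at −0.13, although the first was 0.04 without *Neat1*-WT replicate 2 and the second −0.001 without *Neat1*-WT replicate 3. Of this list, 7 genes are also on the list of further paraspeckle proteins. Among 7 genes with long introns whose transcripts are known to need TDP-43, none was called or had an unadjusted edgeR p under 0.05. Their log2 fold changes were above 0 for 2 and below 0 for 5. They ran from −0.16 for *Efna5*, an ephrin ligand, to 0.04 for *Nrxn3*, a presynaptic adhesion protein, with a median of −0.08. A gene of this list is also among the 6 motor neuron markers, so the 2 lists are not independent. Of 5 genes linked to the retention of edited RNA in paraspeckles, none was called or had an unadjusted edgeR p under 0.05. Here the range was −0.05 for *Adarb1*, an RNA editing enzyme, to 0.10 for *Carm1*, an arginine methyltransferase that modifies NONO, and *Carm1* was the 1 gene of the 5 whose genotypes did not overlap (higher in *Neat1*-KO, as were 2.91% of all genes tested).

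The small values of the 9 genes differed in how firmly they kept their sign. Over 16 alternatives in test, scaling, filter, covariate or libraries, none of the 9 was called and the edgeR, DESeq2 or limma adjusted p stayed at or above 0.520. *Pspc1* and *Nono* stayed above 0, and *Sfpq*, *Tardbp* and *Taf15* below 0, in all 16. *Matr3* changed sign in 10, *Rbm14* in 5, *Ewsr1* in 3 and *Hnrnpk* in 2, with the values of opposite sign between −0.05 and 0.07. The unadjusted p of *Pspc1* was under 0.05 in 4 of the 16 and ranged from 0.0321 to 0.182 (edgeR, DESeq2 and limma).

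**Figure D5:**
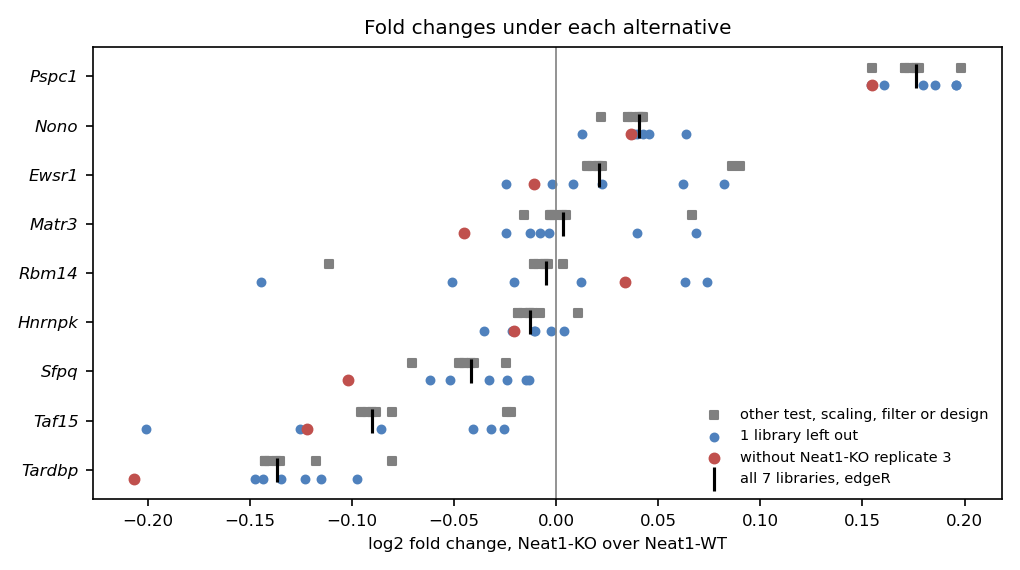
Log2 fold change of *Neat1*-KO over *Neat1*-WT (horizontal axis) of each of the 9 genes (rows) with all 7 libraries in edgeR (black line), under other tests, scalings, filters or designs (grey squares), and with 1 library left out (blue circles, red without *Neat1*-KO replicate 3). The points of *Pspc1* stay between 0.15 and 0.20, those of *Tardbp* between −0.21 and −0.08 with the lowest being the red one, and those of *Matr3* fall on both sides of 0.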

How the data were processed

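The authors prepared poly(A) directional libraries from total RNA, 1 per mouse as far as the labels say, and sequenced them with paired-end reads. Per the labels, their processing notes name FastQC 0.11.7, Trimmomatic 0.38, HISAT2 2.1.0, SAMtools 1.9, featureCounts 1.6.3 and mm10. The deposited values are raw counts of reads per gene. The annotation release and strand setting are not given in the sources used here. The values depend on unique mapping, so reads of pseudogene copies and overlapping genes may be lost or shared.

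Here, counts of 55487 genes were named from GENCODE M21 (55227 matched, and the other 260 held 0.00446% of the counts), filtered by filterByExpr (minimum count 10), TMM-scaled and tested by edgeR 4.0.16 (quasi-likelihood F-test, R 4.3.3), with genotype as the sole term. Intervals used the fit's total degrees of freedom. DESeq2 1.42.0, limma 3.58.1, other factors, filters and covariates, and leaving out each library were alternatives. Copies were searched with BLAST 2.17.0 (at least 90% identity). Figures were drawn with matplotlib 3.10.9.

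The 9 genes, the lists and the tests were chosen with earlier results of these data known. Named outside the 9 were *Neat1*, genes of the 4 lists of related genes at an unadjusted p under 0.05 (at most 5, otherwise the highest and lowest), and the 2 nearest genes of *Pspc1* and *Tardbp*. Genes named for an overlap or copy, the *Ddx3y* values and the genes named for a lack of overlap were chosen after their values were seen. Counts were also simulated from these libraries. In them, edgeR called 80 of 100 genes given a log2 fold change of 1 and 98 of 100 given 2. No smaller change was simulated, so this does not show what edgeR would detect at the size seen in the 9 genes. Changes of that size could not be called here in any case, since the fold threshold of 0.58 excludes them. With no minimum of fold change, none of the 9 genes was called either. Chi-square values of 7.63 to 16.7 per gene between libraries of a genotype showed no library deposited more than once. Some genes of the lists are not reported here, and counts and medians leave them out. Marker lists were given by counts and sums. The labels do not state separate litters, and p-values measure the spread between these libraries.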

Additional observations from a re-analysis of the deposited data

Results flagged for a closer look

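In a scan of 70 results for a *Neat1*-KO library far from the other *Neat1*-KO libraries (Dixon's ratio of the gap to the range, at its 95% critical value for 4 libraries), 2 stood out, where chance alone gives about 3.5. *Neat1*-KO replicate 1 lay apart from the other *Neat1*-KO libraries for *Mog*, a myelin gene of oligodendrocytes (ratio 0.881), and for *Csf1r*, a receptor of microglia (ratio 0.87). It is also the library with the lowest *Taf15* and *Ewsr1*. None of the 9 RNA-binding protein genes stood out in this way among the *Neat1*-KO libraries. The 3 *Neat1*-WT libraries are too few for this scan.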

How the results depend on the processing

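The call of *Neat1* and the absence of a call among the 9 genes, the hnRNP family, the TDP-43 targets and the retention genes held under all 16 alternatives. The number of all genes called was 6, and it was 27 under DESeq2, 124 without a filter, 39 with a replicate block and 3 to 31 when 1 library was left out (31 without *Neat1*-KO replicate 1, 3 without *Neat1*-WT replicate 3, 11 without *Neat1*-WT replicate 4). The number of the 9 genes at an unadjusted p under 0.05 was 1, and 0 under DESeq2, a Xist covariate, median-of-ratios factors, no filter, a replicate block and robust dispersion, and 0 to 1 when 1 library was left out. The number that did not overlap was 1, and 1 to 3 with 1 library left out, and the number of other paraspeckle genes called was 0, and 0 to 1. *Matr3* turned from 0.0032 to −0.0026 (DESeq2), −0.0031 (limma-voom), −0.0025 (median-of-ratios), −0.00097 (no filter) and −0.016 (replicate block), and to −0.045 to 0.068 with 1 library left out. *Rbm14* turned to 0.0031 (limma-voom) and lay at −0.14 to 0.074 with 1 library left out, *Ewsr1* lay at −0.025 to 0.082, and *Hnrnpk* turned to 0.011 (Xist covariate) and lay at −0.036 to 0.0037. *Nrxn3* lay at −0.0011 to 0.081 with 1 library left out. The cause of these turns was not tested. By the longest transcript, mean RPKM was 88.2 for *Hnrnpk*, 32.5 for *Sfpq*, 39.2 for *Nono*, 48.4 for *Ewsr1*, 23.0 for *Matr3*, 18.4 for *Taf15* and 8.90 for *Pspc1*, since that length is shorter than the union of exons. *Cirbp* was called only without *Neat1*-KO replicate 3. With all libraries, its adjusted p was 0.0396 by DESeq2 and 8.93e-05 by edgeR without a filter. That of *Rbm3* was 4.49e-04 by edgeR without a filter. Their log2 fold changes in these fits, 0.50 to 0.52, were under the fold threshold of 0.58, so neither gene was called. In every fit other than those named, both genes had an adjusted p above 0.1.

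Equal replicate numbers did not pair the libraries, since deviations of same-numbered libraries correlated at −0.20, −0.12 and −0.01 for replicates 2, 3 and 4. The replicate block changed no call among the named genes. With 4 and 3 libraries, no exact permutation p can go below 0.0286, and a change of a few percent in any of the 9 genes was not detectable. The *Xist* covariate held little, since *Xist* was near 0 in all libraries.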
